A study of Mus musculus with 2 samples.

Results

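The Toll receptor adaptors and IRAK kinases are the proteins that sit directly under the Toll-like receptors. Followed here were 10 genes, the adaptors Myd88, Tirap, Ticam1 and Ticam2, the kinases Irak1, Irak2, Irak3 and Irak4, the ubiquitin ligase Traf6 and the inhibitor Tollip. They were found by gene symbol in the transcript names and joined on the gene identifier, and all 10 were present among 55536 genes. The samples were mouse bone marrow-derived macrophages of strain C57BL/6J, which are primary cells grown out of bone marrow in culture. Lipid A, the lipid part of bacterial lipopolysaccharide that TLR4 senses, was given at a dose of 100 ng/ml over 12 h, washed away for 12 h, and given once more at that dose for 300 min, according to the labels' description. Another field of the labels names the agent lipoprotein A, and which name is right cannot be told from them. There was 1 group of 2 libraries of polyA RNA, replicates 1 and 2, which carry 1 donor identifier between them but are separate biosamples. Their spread may therefore be smaller than that between animals. No untreated or singly treated sample was analysed here, so no response to Lipid A was tested, no p-value was computed, and the text gives levels, transcript shares and the distance between the libraries.

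A Toll-like receptor that meets its ligand gathers adaptors through a TIR domain, a fold that receptor and adaptor share. MyD88 serves most Toll-like receptors and the interleukin-1 receptor family, with TIRAP (Tirap) as its bridge at the lipid-sensing receptors, while TRIF (Ticam1) serves TLR3 and, through the bridge TRAM (Ticam2), TLR4. MyD88 binds IRAK4 and then IRAK1 or IRAK2 through death domains, the complex passes on to TRAF6, and NF-kB and MAP kinases follow. IRAK-M, the product of Irak3, lacks an active kinase, is known from monocytes and macrophages, and restrains the pathway, also in cells that meet lipopolysaccharide a second time. Tollip binds IRAK1 and restrains it.

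The libraries held 50503160 and 46342327 expected counts over genes, and the 10 genes took 0.0950% of them in replicate 1 and 0.0914% in replicate 2. Over 14305 genes the libraries differed by far more than sampling noise (chi-square per degree of freedom 69.8), and the common biological coefficient of variation was 17.4%. All 8 macrophage markers stood at 10 TPM (a transcript level scaled to transcript length and library size) or more in both libraries. All 6 dendritic cell markers stayed under 1 TPM in both, and so did 7 of 8 T, NK and B cell markers, with Cd4 at 42.85 and 40.15 TPM as the exception. The 7 neutrophil markers summed to 66.87 TPM in replicate 1 and 4.45 TPM in replicate 2, mostly S100a9 at 37.85 and 2.23 TPM and S100a8 at 23.12 and 1.57 TPM, with Ly6g at 0 in both and none of the 7 at 10 TPM or more in both. In these bulk samples fewer cells of a type and less RNA per cell cannot be told apart.

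Myd88, the adaptor shared by most of these receptors, was the highest of the 10, with 191.87 TPM in replicate 1 and 170.05 TPM in replicate 2. It lies at chr9:119335934-119341411 on the minus strand (mm10, as are all coordinates here). Its mean of 181 ± 15.4 TPM (SD, n = 2, as throughout) was above that of 92.1% of the protein-coding genes at 1 TPM or more in both libraries. Ticam2, the bridge to TRIF (chromosome 18, minus strand), had 30.25 and 44.65 TPM in replicates 1 and 2. Ticam1, the TRIF gene (chr17:56269319-56276786, minus strand), had 19.85 and 21.02 TPM. Tirap, the bridge to MyD88 (chr9:35184551-35200291, minus strand), was the lowest adaptor, with 9.82 and 11.11 TPM. The 4 adaptors kept this order in both libraries, with no overlap between one adaptor's libraries and the next one's.

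Within the summed adaptor TPM, Myd88 held 72.5% ± 5.17, Ticam2 15.1% ± 4.30, Ticam1 8.20% ± 0.447 and Tirap 4.20% ± 0.425. Myd88 stood 9.67-fold above Ticam1 in replicate 1 and 8.09-fold in replicate 2, a log2 ratio (pseudocount 1 TPM) of 3.08 ± 0.18. Tirap over Myd88 gave a log2 ratio of -3.99 ± 0.24, so RNA of the bridge was far scarcer than RNA of the adaptor it serves. Protein was not measured. Ticam2 over Ticam1 was less even between the libraries, at 1.52 in replicate 1 and 2.12 in replicate 2 (log2 ratio 0.82 ± 0.33).

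Among the kinases, Irak2 and Irak3 led. Irak2 (chr6:113638467-113695026, plus strand), a kinase-family member that sustains the signal after MyD88, had 128.37 and 104.47 TPM in replicates 1 and 2. Irak3, the IRAK-M gene (chr10:120141648-120202130, minus strand), had 80.60 and 72.05 TPM. Irak1 (chrX:74013914-74023918, minus strand), the kinase that is modified and lost early in signalling, had 29.32 and 24.96 TPM. Irak4, the apical kinase (chr15:94543643-94581815, plus strand), was lowest, with 17.87 and 13.71 TPM. The libraries of 1 kinase did not overlap those of the next, and each kinase was higher in replicate 1 than in replicate 2.

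The kinase mix was nearly the same in both libraries. Irak2 held 49.3% ± 1.11 of the summed kinase TPM, Irak3 32.5% ± 1.43, Irak1 11.5% ± 0.108 and Irak4 6.67% ± 0.428. Irak2 and Irak3 together made up 81.6% in replicate 1 and 82.0% in replicate 2. Set against Irak4, the log2 ratio was 2.81 ± 0.05 for Irak2, 2.21 ± 0.14 for Irak3 and 0.75 ± 0.10 for Irak1. Irak2 over Irak3, the signal-sustaining member over the restraining one, gave 1.59 in replicate 1 and 1.45 in replicate 2 (log2 ratio 0.60 ± 0.10). With protein-coding transcripts alone this log2 ratio was 0.24, because a short noncoding transcript holds part of the Irak2 TPM but few of its counts, as described below.

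Traf6, the ubiquitin ligase (chr2:101678429-101701669, plus strand), was the lowest of the 10, with 8.15 and 7.93 TPM in replicates 1 and 2. Tollip, the inhibitor (chr7:141874813-141918507, minus strand), had 31.62 and 35.11 TPM. Tollip over Traf6 was 3.88 in replicate 1 and 4.43 in replicate 2 (log2 ratio 1.92 ± 0.13). All 8 gene pairs compared kept their direction in both libraries. This follows from levels whose libraries did not overlap, and it adds nothing to them.

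**Figure D1:**
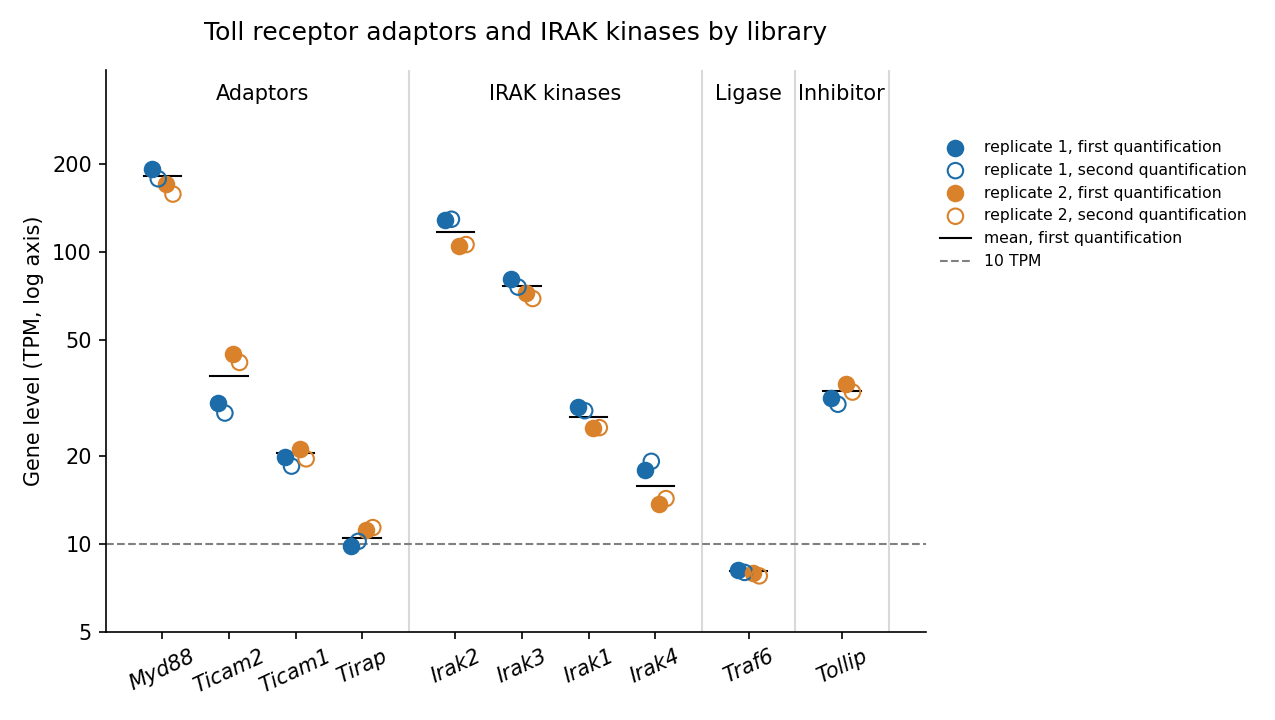
Gene level in TPM on a log axis for each gene, grouped by role. Blue stands for replicate 1 and orange for replicate 2, filled points for the first quantification and open points for the second, and the bar is the mean of the first; Myd88, Irak2 and Irak3 stand above 50 TPM in every library, and Traf6 is under 10 TPM in every library.

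Over all 10 genes the order by mean TPM ran Myd88, Irak2, Irak3, Ticam2, Tollip, Irak1, Ticam1, Irak4, Tirap and Traf6. Ticam2 and Tollip were the only neighbours in that order whose libraries overlapped. In both libraries 8 of the 10 genes, all but Tirap and Traf6, reached 10 TPM, against 27.3% of 22028 protein-coding genes. Tirap lies at this line, and it passed in the second quantification (10.2 and 11.4 TPM), where the number was 9, as it was with TPM rescaled over protein-coding genes. Their median level was 30.3 TPM, beside 16.9 TPM for the 9781 protein-coding genes at 1 TPM or more in both. The authors' second quantification, made straight from the reads, gave levels close to the first, with none of the 10 genes 2-fold apart, against 13.4% of 12268 genes and 2.19% of 10179 protein-coding ones.

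None of the 10 genes was 2-fold or more apart between the libraries in TMM-scaled counts, where 4.21% of 12543 genes were. None was 1.5-fold apart, where 13.2% were. At these shares few of any 10 genes would be called, so this does not set the 10 apart. Where the mean count was at least 100, fewer genes were 2-fold apart, 196 of 10067. There were 6 genes higher in replicate 1 and 4 in replicate 2, with a median log2 ratio of 0.11, beside -0.00035 over all genes. Ticam2 was farthest apart, with 4310 counts in replicate 1 and 5824 in replicate 2, a log2 ratio of -0.55 and 1.46-fold higher in replicate 2. The counting standard error of that log2 ratio was 0.029, so depth does not limit it. Ticam2 shares 838 exonic nt on the same strand with Tmed7 (64.98 and 72.81 TPM), so its counts are uncertain where reads fall in that stretch. Irak4 was next, with 1483 and 1101 counts and a log2 ratio of 0.31 (counting error 0.057). Its exons share 395 nt with Twf1 on the opposite strand (70.13 and 54.16 TPM), and no source used here states the strand handling. Traf6 was nearest to even, with 1666 and 1498 counts and a log2 ratio of 0.04 (counting error 0.051).

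**Figure D2:**
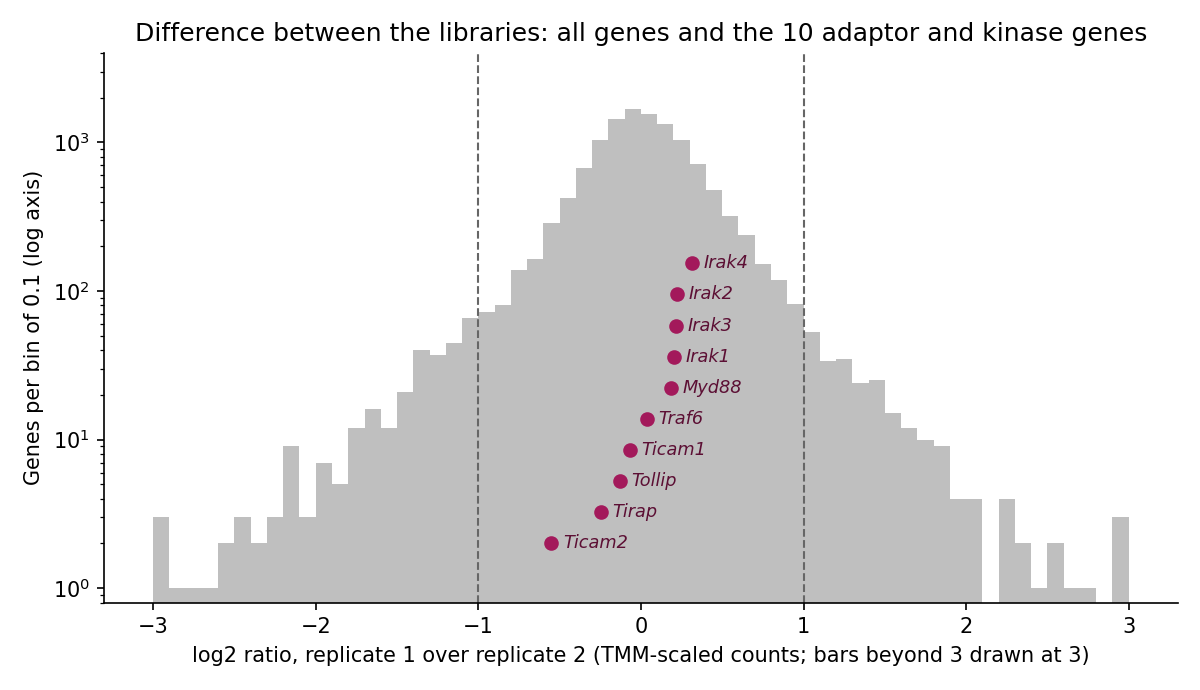
Histogram of the log2 ratio of replicate 1 over replicate 2 for 12543 genes, with a log axis for genes per bin, and the 10 genes as labelled points whose height has no meaning. Dashed lines mark 2-fold; every labelled gene lies between them, with Ticam2 at -0.55 and Irak4 at 0.31 as the ends.

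The levels were split among transcripts to varying extents. In all, the genes have 60 annotated transcripts, and 12 of these were at 0 in both libraries. One transcript held 60% or more of the gene's TPM in both libraries for 7 of the 10 genes. Among the 8 genes at 10 TPM or more in both, it was 5, near the share of 67.6% of 6012 protein-coding genes at that level. The exceptions were Irak1, Irak2 and Irak3, and Irak2 missed the line only in replicate 1, at 58.3%. In the second quantification, and with counts in place of TPM, Irak2 passed it and the number was 8 of 10. Ticam1 has a single annotated transcript. The leading transcript held 99.4% ± 0.292 of Ticam2, 99.0% ± 0.243 of Myd88, 98.3% ± 0.683 of Tollip, 95.0% ± 0.870 of Traf6, 82.5% ± 4.32 of Irak4 and 76.0% ± 5.86 of Tirap.

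**Figure D3:**
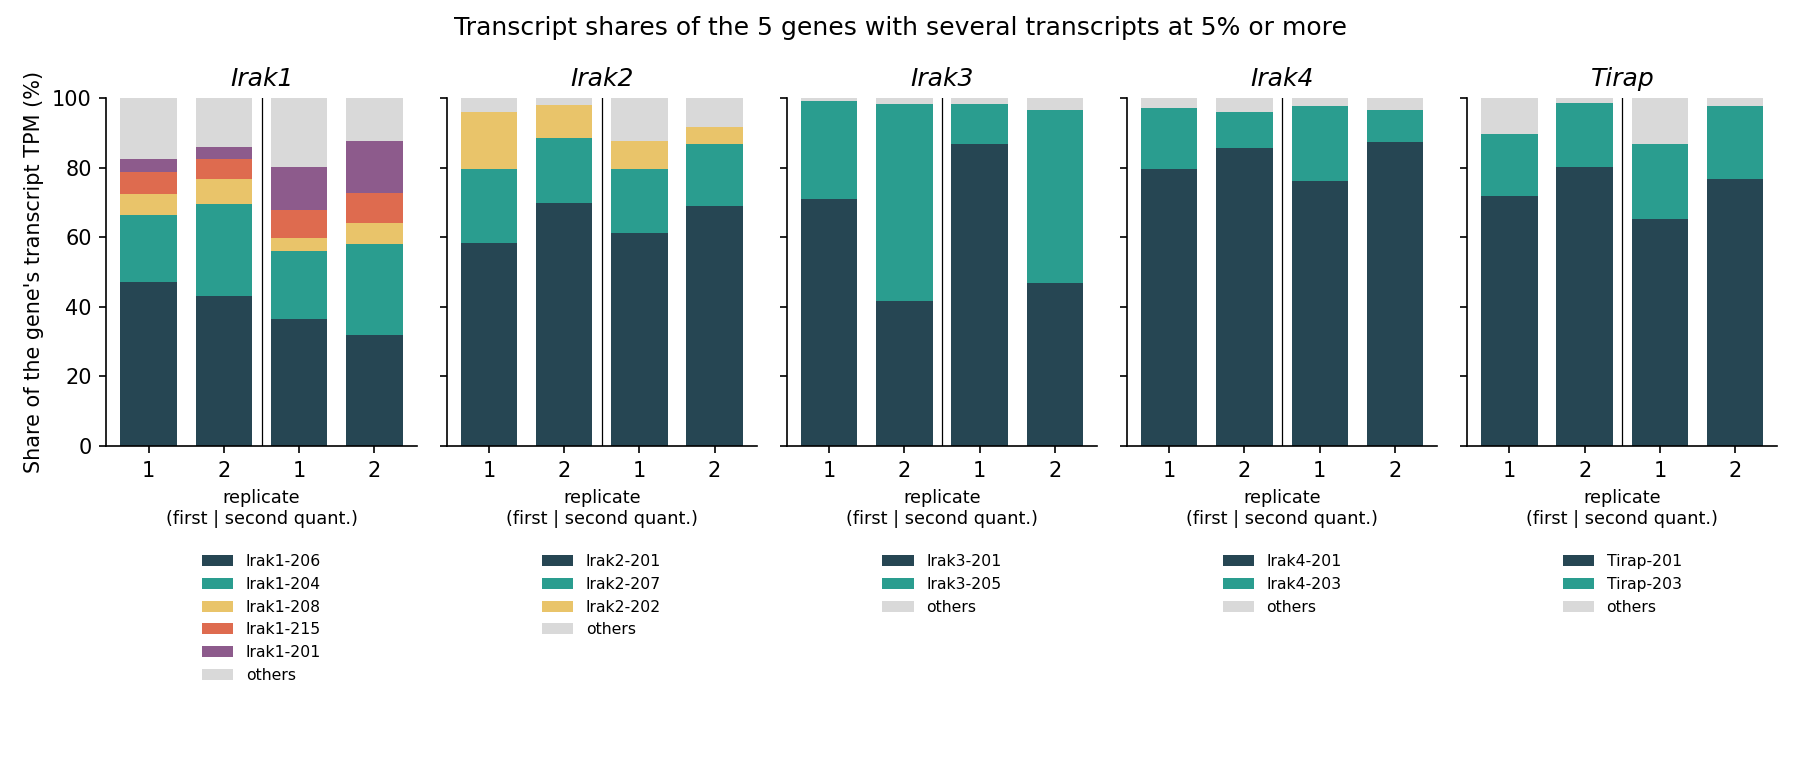
Stacked bars of transcript share, in percent of the gene's transcript TPM, for the 5 genes with more than 1 transcript at 5% or more in either quantification. In each panel the left pair of bars is replicates 1 and 2 in the first quantification and the right pair the same in the second; the Irak3 bars differ most, with Irak3-201 at 70.9% and 41.5% in the first and 86.9% and 46.9% in the second.

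Irak3 carried the clearest difference between the libraries. Its long form Irak3-201, with 609 codons, had 57.16 TPM in replicate 1 and 29.92 TPM in replicate 2. Its other coding form Irak3-205, with 517 codons, had 22.77 TPM in replicate 1 and 40.96 TPM in replicate 2. Irak3-201 was thus 1.91-fold higher in replicate 1 and Irak3-205 1.80-fold higher in replicate 2, while the gene as a whole differed by 1.16-fold. In shares, Irak3-201 held 70.9% and 41.5% in replicates 1 and 2, and Irak3-205 held 28.3% and 56.8%, so the leading transcript was not the same.

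The authors' table also gives an SD for splitting reads between the forms within a library, which holds no spread between libraries. Irak3-201 had a posterior mean of 5894 counts (SD 201) in replicate 1 and 2792 (SD 172) in replicate 2, and Irak3-205 had 2134 (SD 202) and 3555 (SD 172). The second quantification gave the same direction, with Irak3-201 at 65.7 and 32.4 TPM and Irak3-205 at 8.74 and 34.3 TPM in replicates 1 and 2. There Irak3-201 held 86.9% and 46.9%, and Irak3-205 held 11.6% and 49.7%. A leading share 20 points or more apart between the libraries, a line drawn after these values were seen, was found for 3.2% of 5655 protein-coding genes at 10 TPM or more with several transcripts in the first quantification. It was found in the same direction in both quantifications for 1.59%, and Irak3 was the only one of the 7 such genes here to meet it. The leading transcript differed between the libraries for 6.86% of the same 5655 genes in the first quantification. With 2 libraries of 1 condition, no test of this difference was possible.

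The forms part at the first exon. Irak3-201 starts with a 333 nt exon at chr10:120201327-120201659, and Irak3-205 with a 122 nt exon at chr10:120202009-120202130, whose start lies 471 nt upstream. Both join the same exon 2. Irak3-205 lacks the first 276 coding nt of Irak3-201, so its reading frame opens 92 codons later and is otherwise the same. IRAK proteins carry their death domain, which binds MyD88, near the amino terminus. Whether the later start reaches into that domain was not computed, and protein was not measured. The last 15 nt of each first exon (capitals) and the first 15 nt of exon 2 show the junctions that tell the forms apart, from the GENCODE transcripts:
Irak3-201 exon 1 to exon 2: GCTGGCGGGGCCTGGcggagcgactttcaa
Irak3-205 exon 1 to exon 2: AGTTTGTTTGCCCAGcggagcgactttcaa

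**Figure D4:**
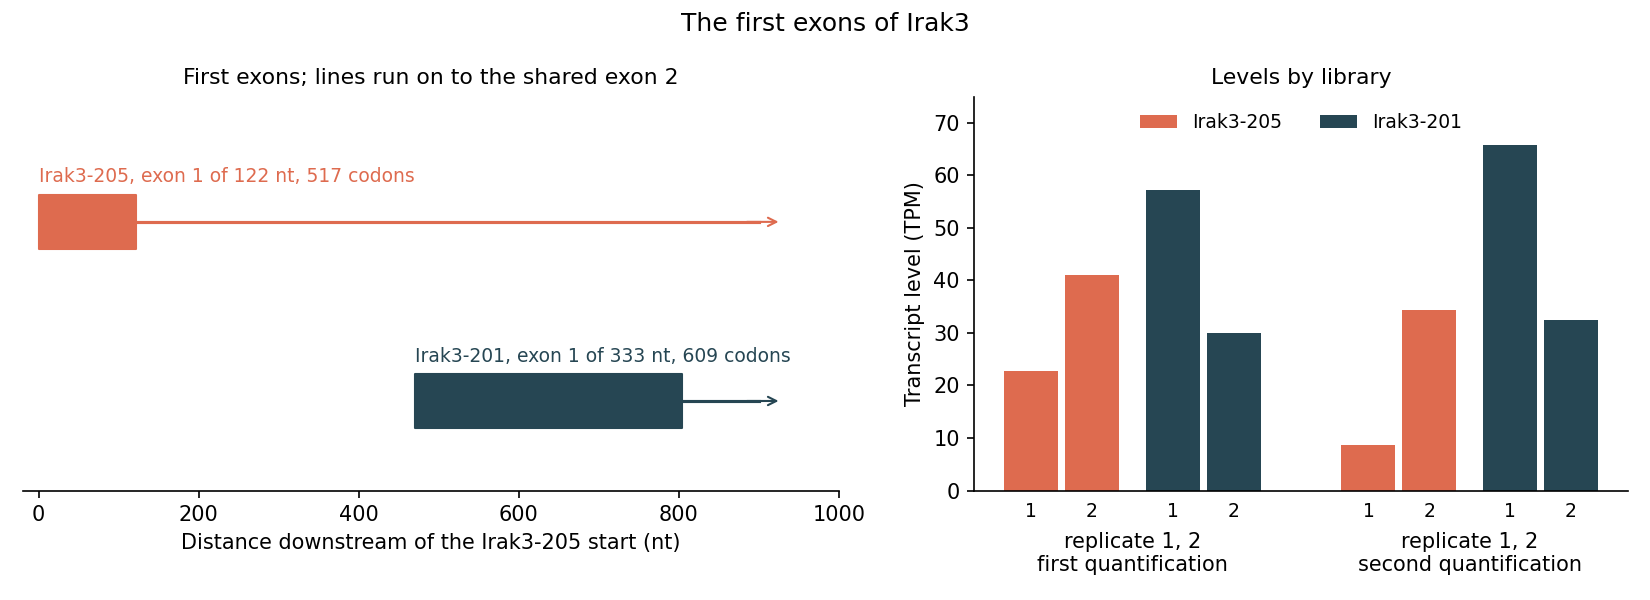
Left, the first exons of Irak3-205 and Irak3-201 drawn to scale against distance in nt from the Irak3-205 start. Right, the TPM of each form, with replicate 1 and then replicate 2 in each pair of bars; Irak3-205 is higher in replicate 2 and Irak3-201 is higher in replicate 1 in both quantifications.

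The promoters of both starts were in the RefSeq table for GRCm38.p6, each with 250 bases before and 50 after the start, and they are shown because the forms arise from them. The start that RefSeq gives for the downstream promoter is at 120201597, and GENCODE gives 120201659 for Irak3-201. The upstream one, 120202130, is the same in both. Capitals mark CG dinucleotides, and both are read on the minus strand, at chr10:120201548-120201847 (downstream, Irak3-201) and chr10:120202081-120202380 (upstream, Irak3-205):
Irak3-201 promoter: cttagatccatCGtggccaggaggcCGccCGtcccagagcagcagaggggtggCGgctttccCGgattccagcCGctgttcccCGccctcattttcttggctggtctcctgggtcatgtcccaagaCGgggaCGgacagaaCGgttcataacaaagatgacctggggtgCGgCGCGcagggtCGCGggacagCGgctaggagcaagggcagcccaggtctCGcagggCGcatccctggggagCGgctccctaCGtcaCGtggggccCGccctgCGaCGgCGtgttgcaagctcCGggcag
Irak3-205 promoter: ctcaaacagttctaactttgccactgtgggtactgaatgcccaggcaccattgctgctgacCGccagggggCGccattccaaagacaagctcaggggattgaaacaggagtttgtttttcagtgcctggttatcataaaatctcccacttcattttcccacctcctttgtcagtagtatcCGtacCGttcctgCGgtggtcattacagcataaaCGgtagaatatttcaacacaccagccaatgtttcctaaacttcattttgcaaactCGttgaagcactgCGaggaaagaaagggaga
The downstream promoter had 67.3% G and C and 26 CG dinucleotides, more of both than 86.2% and 83.1% of 32851 promoters. The upstream one had 46.7% G and C and 8 CG dinucleotides, near the median of 7, and 27.3% of promoters were lower in G and C.

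Some values that differ between the libraries, or that share sequence with Irak3, are given here as examples. With 2 libraries, any gene that differs moves with either form, and 4.21% of 12543 genes were 2-fold apart. Tmbim4, a gene on the opposite strand at 187.70 and 151.54 TPM, shares 192 exonic nt with Irak3 at its start. The overlap is uneven between the forms. Tmbim4-209 shares 122 nt with the first exon of Irak3-205, which is the whole of that exon. With the 333 nt first exon of Irak3-201 it shares 70 nt. The 3 Tmbim4 transcripts that reach into either Irak3 first exon were assigned 112 counts in all in replicate 1 and 76 in replicate 2. These counts come from the same assignment of reads as those of Irak3, and whether reads of Tmbim4 were given to Irak3 was not tested. The neutrophil markers, higher in replicate 1 as given above, moved with Irak3-201, and their part in the result was not tested.

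Irak2 was split 3 ways. Irak2-201, with 622 codons, had 74.82 TPM in replicate 1 and 72.95 TPM in replicate 2, or 58.3% and 69.8% of the gene. Irak2-202, with 574 codons, had 21.18 and 10.17 TPM (16.5% and 9.73%), and so was 2.08-fold higher in replicate 1. The second quantification put Irak2-202 at 10.2 and 5.24 TPM, lower in both libraries but with the same direction. A still shorter complete form, Irak2-203 with 551 codons, had 0.06 TPM in replicate 1 and 0 in replicate 2. In the mouse, spliced forms of Irak2 are known that differ in whether they pass on or block the signal, and the files do not pair those names with these transcripts.

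Irak2-202 leaves out exon 3 of Irak2-201, 144 nt at chr6:113665703-113665846, which keeps the frame and removes 48 codons. Irak2-202 also starts and ends slightly inside Irak2-201, outside the coding part. The exon is printed in capitals with 15 nt of its neighbours, followed by the junction that replaces it, since it is the coding difference between the 2 main forms:
Irak2-201 exon 3: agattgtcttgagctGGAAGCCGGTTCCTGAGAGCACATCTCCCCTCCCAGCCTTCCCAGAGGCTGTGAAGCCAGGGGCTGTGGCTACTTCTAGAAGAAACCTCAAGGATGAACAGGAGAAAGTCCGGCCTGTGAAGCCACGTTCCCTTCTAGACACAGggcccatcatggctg
Irak2-202 exon 2 to exon 4: agattgtcttgagctggcccatcatggctg

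The third Irak2 transcript, Irak2-207, is a retained-intron fragment of 573 nt with no annotated reading frame. It had 27.34 and 19.38 TPM in replicates 1 and 2, or 21.3% and 18.6% of the gene's TPM, but 306 and 202 counts, or 2.93% and 2.44% of its counts. The gap between the shares follows from its length, since TPM divides by it. Irak2-207 differs from Irak2-201 by 38 nt of intron at chr6:113690745-113690782, printed here in capitals with the first 15 nt of the exon that follows:
Irak2-207 start: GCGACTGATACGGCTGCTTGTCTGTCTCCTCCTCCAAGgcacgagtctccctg
Over protein-coding transcripts Irak2 had 89.6 TPM, against 116 TPM over all. These transcripts held 77.2% of the gene's TPM but 96.5% of its counts. How far the level that can encode protein lies below the gene level therefore depends on the measure.

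Irak1 had the most transcripts, 22 in all. Irak1-206, with 711 codons, led with 13.83 and 10.80 TPM in replicates 1 and 2 (47.2% and 43.2%). Irak1-204, which is 1 codon shorter, had 5.65 and 6.56 TPM (19.3% and 26.3%). These differ by 3 nt inside the gene, at chrX:74022662-74022664, so few reads can tell them apart, and the posterior SD of each was near 100 counts in replicate 1 (104 and 99.2). Irak1-201, with a further 39 codons from a 117 nt stretch, had 1.10 and 0.92 TPM in the first quantification but 3.55 and 3.76 TPM in the second. The fragments Irak1-208 and Irak1-215, the second of them a retained intron, had 1.80 and 1.77 TPM and 1.81 and 1.44 TPM.

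The short coding forms of Irak1 with a complete reading frame were scarce. Irak1-203, which lacks 28 codons, and Irak1-205, which lacks 80, were both listed at 0 in both libraries. The authors' table gives them posterior mean counts above 0 all the same, with 9 (SD 8.09) and 10 (SD 9.55) for Irak1-203 and 2 (SD 2.82) and 3 (SD 3.33) for Irak1-205 in replicates 1 and 2, so reads shared with other forms leave some room for them. Irak1-202, with 710 codons, lacks 1280 nt outside the coding part near the 3-prime end and had 0.37 and 0.16 TPM. Irak1-207, with 712 codons and so not a short form, had 0.05 and 0 TPM. Transcripts with no complete reading frame carry the same skips. Irak1-222 lacks the 81 nt that Irak1-203 lacks and had 86 and 81 counts in replicates 1 and 2. Irak1-214 lacks these and the 237 nt missing from Irak1-205, and had 8 and 0 counts. Irak1-211, which lacks a 382 nt stretch, had 0.92 and 1.39 TPM.

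Irak4 was led by Irak4-201, with 459 codons, at 14.20 and 11.74 TPM in replicates 1 and 2. Irak4-203, a transcript that ends in 262 nt of intron, had 3.18 and 1.42 TPM, or 17.8% and 10.3% of the gene. Irak4-202, 6 codons shorter than Irak4-201, had 0.49 and 0.56 TPM. Transcripts not annotated as protein-coding held 10% or more of the TPM in both libraries for Irak1, Irak2 and Irak4. That is 3 of the 7 genes at 10 TPM or more with several transcripts, against 28.2% of 5655 such protein-coding genes. With counts in place of TPM these shares averaged 5.56%, 3.52% and 5.39%, under the 10% line for all 3 genes.

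Myd88 was almost wholly Myd88-201, with 296 codons, at 189.54 and 168.56 TPM in replicates 1 and 2. Myd88-203, which retains introns of 160 and 389 nt, had 2.33 and 1.48 TPM, and Myd88-202 was at 0 in both. The known short MyD88 form, which blocks signalling, joins exon 1 to exon 3. None of the 3 annotated Myd88 transcripts lacks the 135 nt exon 2 in that way, so this form could not be quantified from these tables. Exon ends of Myd88 share 290 nt with Acaa1a on the opposite strand (75.95 and 73.46 TPM).

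The Tirap transcripts with a complete reading frame differed in leader exons and in the 3-prime end, not in the protein they encode. Tirap-202, Tirap-204 and Tirap-206, which lack such a frame, were at 0 in both libraries in the first quantification. Tirap-201 had 7.06 and 8.90 TPM in replicates 1 and 2, Tirap-203 1.73 and 2.04 TPM, and Tirap-205 0.76 and 0.16 TPM. All 3 carry the same number of codons, 249. Ticam2-201 had 30.01 and 44.48 TPM, so the distance between libraries seen for Ticam2 lay in its coding transcript. Tollip-201, with 274 codons, had 31.25 and 34.36 TPM. The shorter Tollip-203, with 270 codons, had 0.25 and 0.58 TPM, and the shorter Tollip-202 and Tollip-204 were at 0 in both. Traf6-201, with 530 codons, had 7.69 and 7.58 TPM.

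Motifs were searched on both strands of the 12 RefSeq promoters found for 9 of the 10 genes (GRCm38.p6); Ticam2 was not matched. The interferon response letters GAAANNGAA were in 2 of the 12, those of Myd88 and of the upstream Irak3 start, and in 8.56% of all 32851 promoters. In Myd88 they lie 40 bases before the RefSeq start, at the centre of chr9:119340040-119340068 on the minus strand, which is shown with those letters in capitals because Myd88 was the highest of the 10 genes:
Myd88 promoter: gagcttctcgGAAAGCGAAagaaggaggg
The GC box letters GGGCGG were in 11 of 12, all but the upstream Irak3 promoter, and in 35.7% of all promoters. The 12 are not all separate, since the Irak1 promoters overlap each other, as do the Tirap promoters. In each of these pairs the same box counts for both promoters. The NF-kB letters GGNNTTTCC were in 1 of 12, that of Myd88, and in 5.82% of all promoters, and the AP-1 letters TGANTCA were in 0 of 12 and in 7.81% of all promoters. These matches describe letters, not sites in use.

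The surrounding pathway genes give the scale for these levels. Of 19 Toll-like receptors and cofactors, 16 stood at 10 TPM or more in both libraries, and the median was 112 TPM, between the mean levels of Irak2 and Irak3. In replicate 2 the median of the list, 106 TPM, was also above Irak2. Unc93b1, which carries nucleic acid-sensing receptors to endosomes, had 629.55 and 574.42 TPM in replicates 1 and 2. Cd180, a receptor homologue known to restrain TLR4 in myeloid cells, had 494.24 and 620.75 TPM, and Tlr5, the flagellin receptor, was lowest at 0.01 and 0.05 TPM. Of 8 interleukin-1 receptor family genes, which also signal through MyD88 and the IRAK kinases, none reached 10 TPM and 6 were under 1 TPM in both. The highest were Il1rap, the shared co-receptor chain, with 4.18 and 5.18 TPM, and the decoy Il1r2, with 0.61 and 2.06 TPM. The lowest by mean were Il18r1, a chain of the interleukin-18 receptor, with 0.04 and 0 TPM, and level with it Il1rl1, the interleukin-33 receptor, with 0.03 and 0.01 TPM.

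Downstream of MyD88, 11 of 15 genes were at 10 TPM or more in both libraries, and the median was 37.6 TPM. Irf7, an interferon regulatory factor, had 2327.44 and 2095.87 TPM in replicates 1 and 2, and Ube2n, the ubiquitin-conjugating enzyme that works with TRAF6, had 201.02 and 172.31 TPM. Peli3, a Pellino ligase, was lowest at 0.33 and 0.31 TPM. Of 8 genes of the TRIF arm, 6 reached 10 TPM, and the median was 36.4 TPM. There Ikbke, an IKK-related kinase, had 366.54 and 281.34 TPM, Tank, which binds such kinases, 156.87 and 140.45 TPM, and Traf3, a ligase of the arm, had the lowest mean, at 8.06 and 7.74 TPM, with Fadd, a death-domain adaptor, next to it at 7.49 and 8.32 TPM. Of 9 other TIR adaptors and modulators, 8 reached 10 TPM, and the median was 23.6 TPM. Pik3ap1, the adaptor BCAP, had 615.44 and 743.23 TPM, Ptpn6, the phosphatase SHP-1, had 402.32 and 391.62 TPM, and Sarm1, the remaining TIR adaptor, was lowest at 0.03 and 0.01 TPM.

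**Figure D5:**
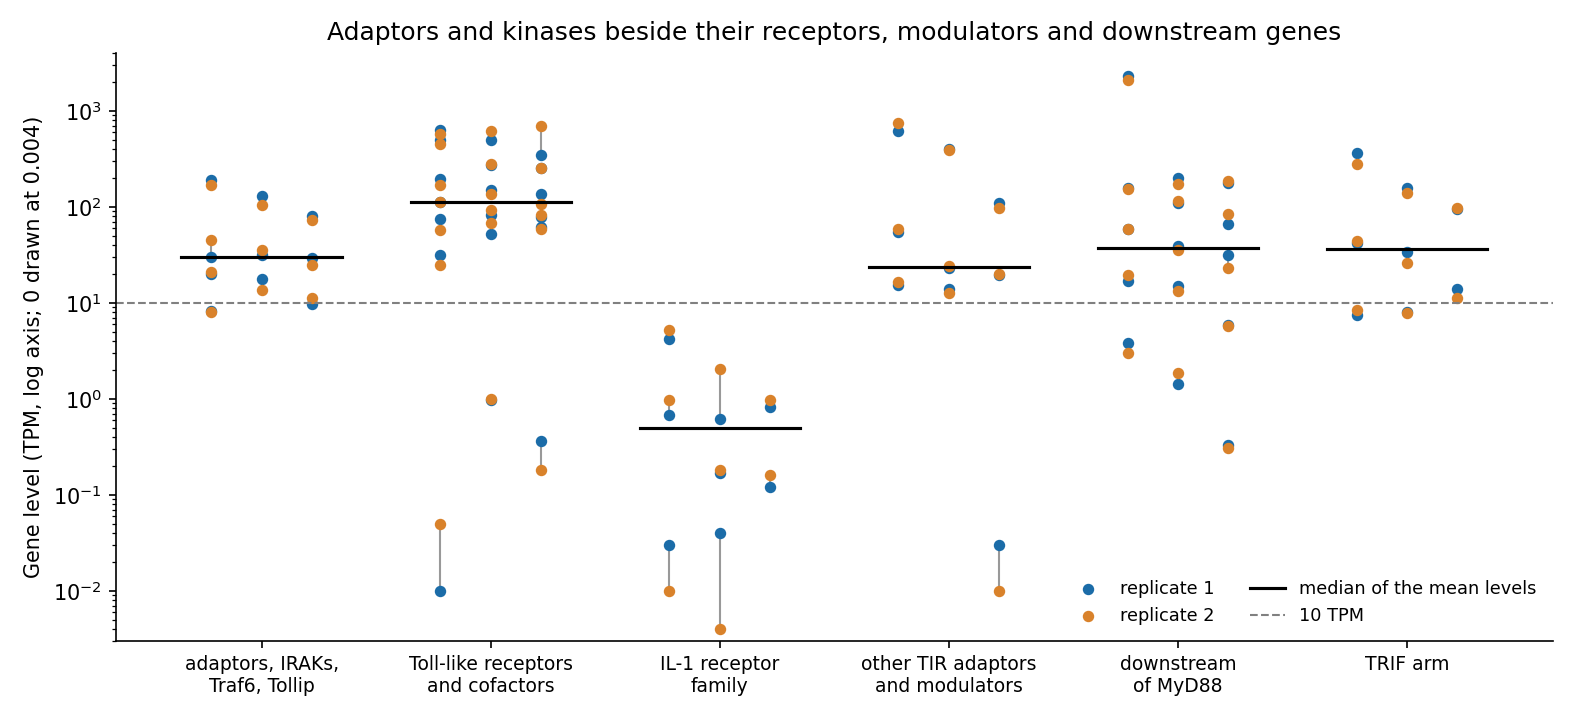
Gene level in TPM on a log axis for the 10 adaptor and kinase genes and for 5 lists of pathway genes, with replicate 1 in blue and replicate 2 in orange joined by a line for each gene. Horizontal bars are medians of the mean levels, from 0.498 TPM for the interleukin-1 receptor family to 112 TPM for the Toll-like receptors and cofactors.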

How the data were processed

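PolyA RNA of 2 libraries of 1 group was measured. The authors deposited expected counts and TPM per gene and per transcript, made from a transcriptome alignment (the first quantification), and estimated counts and TPM made from the reads (the second), per the file headers and the README deposited with each sample. Build and annotation are mm10 and GENCODE M21, per the same README. The deposited percent of each transcript was not needed, and the deposited posterior SD, entered as a score, is the authors' own. The sources used here name no aligner, quantifier or strand handling.

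Expected counts were rounded. Library ratios are log2 CPM, prior count 0.5, TMM-scaled in edgeR 4.0.16 (R 4.3.3) after filterByExpr, which kept 12543 genes; DESeq2 1.42.0 gave alternative size factors. Pair ratios used a pseudocount of 1 TPM. Transcript shares are percent of the gene's transcript TPM. Python 3.11.15, pandas 2.3.3, NumPy 2.4.6 and matplotlib 3.10.9 did the rest, and the ratio step was tested on simulated data. Exon comparisons used the GENCODE annotation and motifs the RefSeq promoter table. Counting standard errors cover counting error only.

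The genes, lists and pairs were chosen with earlier results of these data known. Named are all 10 genes, their transcripts at 5% or more or of shorter coding form, and the 2 highest and the lowest gene of each list.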

Additional observations from a re-analysis of the deposited data

How the results depend on the processing

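The second quantification, TPM rescaled over protein-coding genes and protein-coding transcripts alone gave median levels of the 10 genes of 29.2, 32.4 and 28.2 TPM, against 30.3, and leaving out 1 library gave 29.8 to 30.0. Genes 2-fold apart between the libraries numbered 528 of 12543. With no filter on low counts it was 5481 of 19730, and 196 of 10067 where the mean count was at least 100. None of the 10 genes was among them in any of these settings. The log2 ratio of Traf6 was -0.013 in the second quantification, against 0.04, and the cause was not tested. Genes 2-fold apart between the quantifications numbered 1643 of 12268 at 1 TPM or more in either, against 296 of 6791 at 10 TPM or more. No paired analysis was possible because there was 1 group. Counts in place of TPM moved 8 of 10 leading shares by more than the library SD. With 2 libraries of 1 donor identifier, the SDs are themselves uncertain, and transcript shares rest on the few bases that tell forms apart.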
